A study of Mus musculus with 8 samples.

Results

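Heat shock proteins are molecular chaperones that help other proteins fold and keep damaged ones from clumping. The 10 genes described here, Hspa1a, Hspa1b, Hspa8, Hsph1, Dnajb1, Hspb1, Hsp90aa1, Hsp90ab1, Hspd1 and Hspe1, were chosen by name among the 20461 gene identifiers of the library tables. They were chosen with earlier results of these data known. Each had 1 entry, and all 10 had enough signal to be among the 11867 genes tested. They were measured by sequencing polyadenylated RNA of mouse embryonic stem cells. All groups are tatsf1 flox/flox, so that Htatsf1 can be deleted, and all carry CreERT2. HTATSF1 is an RNA-binding protein of the spliceosome. CreERT2 is a recombinase fused to a mutated estrogen receptor domain, which tamoxifen activates so that the gene is deleted. The 4 groups, of 2 libraries each, were tamoxifen for 72 h, ethanol (the vehicle) for 72 h, tamoxifen for 48 h and ethanol for 48 h.

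The labels give neither the promoter that drives CreERT2 nor the number of lines, and tamoxifen and the deletion cannot be told apart because no treated group without Cre was analysed here. The cells grew on mouse embryonic fibroblasts (MEFs), and genes known as fibroblast markers were detected in every group. In such bulk samples, fewer cells of a type and less RNA per cell cannot be told apart. Nothing in the labels states that replicate libraries were grown as separate cultures. The p-values therefore measure only how far these libraries varied, and that variation may be technical.

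Heat shock genes fall into families by the size of their proteins. HSP70 proteins (Hspa1a, Hspa1b and Hspa8) hold unfolded chains. J-domain proteins such as Dnajb1 bring them clients, and exchange factors such as Hsph1 reset their nucleotide. HSP90 (Hsp90aa1 and Hsp90ab1) finishes the folding of kinases and hormone receptors, and it is known to hold the estrogen receptor domain used in CreERT2 before ligand binds. HSP60 and HSP10 (Hspd1 and Hspe1) form the folding chamber of mitochondria, and the small protein HSP27 (Hspb1) holds aggregating proteins. Under heat or other protein damage the transcription factor HSF1 binds heat shock elements, repeats of the letters GAA in alternating orientation, and raises most of these genes, while Hspa8 and Hsp90ab1 are known as the constitutive forms. Mouse embryonic stem cells are known for high basal levels of several chaperones.

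The RefSeq promoter table, on build GRCm38.p6, had windows for 7 of the 10 members, each running from 250 bases before to 50 bases after a gene's start. Hspa8, Hsp90aa1 and Hsp90ab1 had no entry. The windows below are those of 3 of the 4 members that rose in tamoxifen at 72 h, and that of Hspe1, which also covers most of a window of Hspd1. Each is printed 5′ to 3′ on the gene's strand. Capitals mark GAANNTTC or TTCNNGAA, the pairs of facing units of a heat shock element. Each of these pairs reads the same on both strands, and neighbouring matches may overlap. Hspa1a (chr17:34972107-34972406, minus strand) and Hspa1b (chr17:34959189-34959488, minus strand) are neighbouring copies. Hsph1 is shown for 1 of its 2 windows (chr5:149636287-149636586, minus strand), and Hspe1 at chr1:55087898-55088197 on the plus strand.
Hspa1a: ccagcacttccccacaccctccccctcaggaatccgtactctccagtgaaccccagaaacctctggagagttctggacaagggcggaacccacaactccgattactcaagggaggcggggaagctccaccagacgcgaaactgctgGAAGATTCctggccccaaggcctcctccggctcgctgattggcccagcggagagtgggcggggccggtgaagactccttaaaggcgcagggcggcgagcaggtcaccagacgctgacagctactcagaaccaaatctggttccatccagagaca
Hspa1b: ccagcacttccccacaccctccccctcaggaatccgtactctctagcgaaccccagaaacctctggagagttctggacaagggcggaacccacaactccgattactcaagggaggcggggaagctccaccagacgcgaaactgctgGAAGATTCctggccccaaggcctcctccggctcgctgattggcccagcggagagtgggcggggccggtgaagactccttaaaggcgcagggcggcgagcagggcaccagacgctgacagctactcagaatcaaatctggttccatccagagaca
Hsph1: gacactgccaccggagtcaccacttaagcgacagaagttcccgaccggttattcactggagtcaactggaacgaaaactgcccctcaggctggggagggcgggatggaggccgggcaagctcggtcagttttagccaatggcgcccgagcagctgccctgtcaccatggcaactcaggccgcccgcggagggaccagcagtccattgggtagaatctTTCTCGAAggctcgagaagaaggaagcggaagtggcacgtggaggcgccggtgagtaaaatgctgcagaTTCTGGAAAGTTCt
Hspe1: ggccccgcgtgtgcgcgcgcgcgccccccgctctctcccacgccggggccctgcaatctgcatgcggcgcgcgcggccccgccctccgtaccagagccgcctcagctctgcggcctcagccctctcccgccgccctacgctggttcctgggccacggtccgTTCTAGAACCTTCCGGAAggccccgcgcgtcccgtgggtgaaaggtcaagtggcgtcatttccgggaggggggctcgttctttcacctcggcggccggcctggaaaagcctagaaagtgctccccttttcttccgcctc

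The windows of Hspa1a and Hspa1b were identical at 296 of 300 bases (98.7%). With positions counted from 1 at the 5′ end of the window and the base of Hspa1a first, the differences were C44T, T47C, T249G and C276T. Both held 1 pair at the same place, from base 147 to base 154. The Hsph1 window held 3 pairs. The Hspe1 window held 3 overlapping pairs from base 162 to base 179, and a window of Hspd1, which is read in the opposite direction, shared 285 of its 300 bases. Hspb1 had 2 pairs, neither of the 2 windows of Dnajb1 had one, and in all 6 of the 7 members held at least 1. Of all 27025 genes with windows 17.0% had a window with at least 1 such pair, and of all 32851 windows 15.1% held one. The longer run of 3 units, GAANNTTC followed by NNGAA, searched on both strands and overlapping the pairs, was in windows of 3 members (Hsph1, Hspd1 and Hspe1), in those of 0.662% of all genes and in 0.603% of all windows. A match is a description of these letters and not a measured binding site.

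The members spanned a wide range of levels. FPKM, the fragments of a transcript scaled by its length and by sequencing depth, is a level per length and can be compared between genes. Averaged over the 8 libraries, Hspa8 stood at 2197 FPKM, Hsp90aa1 at 1898 FPKM, Hsp90ab1 at 1831 FPKM, Hspd1 at 526 FPKM, Hspe1 at 525 FPKM, Hspb1 at 271 FPKM, Hsph1 at 76.4 FPKM, Dnajb1 at 27.9 FPKM, Hspa1b at 3.20 FPKM and Hspa1a at 1.22 FPKM. Most neighbours in this order stood in it in all 8 libraries. The exceptions were Hsp90aa1, which was above Hsp90ab1 in 6 of 8 libraries, and Hspd1, which was above Hspe1 in 3 of 8. Both values of Hsp90aa1 were above both of Hsp90ab1 in 3 of 4 groups, and both of Hspd1 above both of Hspe1 in 1 of 4. In the reverse order, Hsp90aa1 was below Hsp90ab1 without overlap in tamoxifen at 72 h. Likewise Hspd1 was below Hspe1 without overlap in ethanol at 72 h. Among the 11867 tested genes Hspa8 ranked between 6 and 23 by FPKM, while Hspa1a ranked between 10579 and 11618. Together the 10 members held 1.43% to 1.49% of the summed FPKM of tested genes in the 4 libraries of 72 h and 1.79% to 1.87% in the 4 libraries of 48 h.

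The precision behind these values followed the levels. The fragments implied by the deposited confidence bounds ran from 55167 to 87331 per library for Hspa8, but only from 25 to 87 for Hspa1a and from 50 to 199 for Hspa1b, and these numbers cover counting error only. Over all genes they summed to between 8985000 and 16846000 per library. The 2 HSP70 copies are near-identical, so reads may have been split between them and their separate values are uncertain. In the tamoxifen libraries Htatsf1 stood at 4.12 and 4.63 FPKM, against 22.7 and 22.7 FPKM in the ethanol libraries at 72 h. At 48 h it had 4.13 and 3.78 FPKM in the tamoxifen libraries, against 23.0 and 21.7 FPKM in the ethanol libraries. By limma the log2 change of Htatsf1 was -2.14 (adjusted p = 1.56e-07) at 72 h and -2.24 (adjusted p = 4.06e-07) at 48 h.

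**Figure D1:**
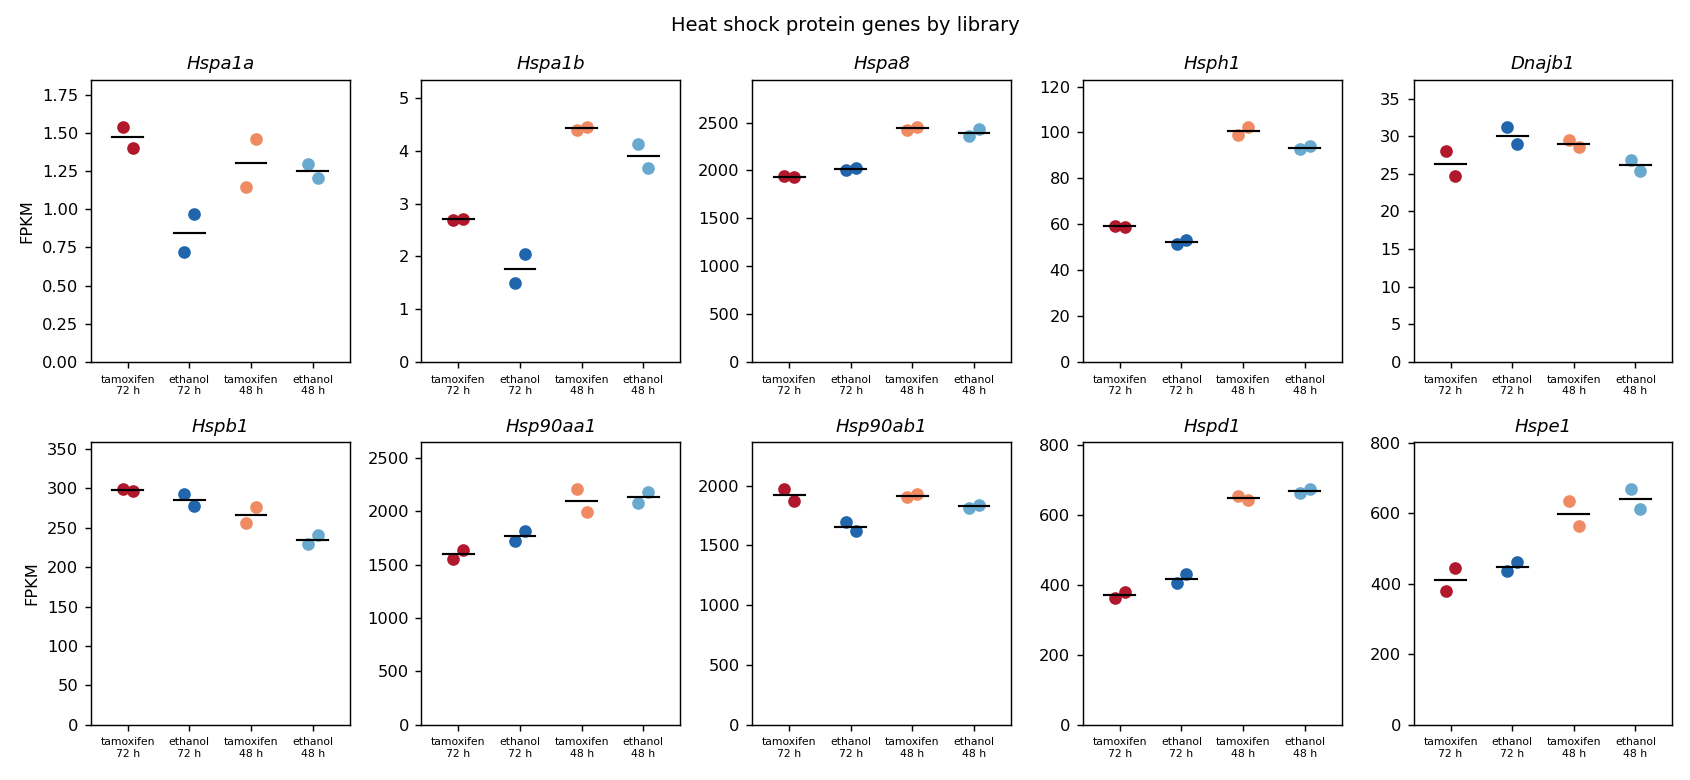
FPKM (vertical axes, each from 0) of the 10 heat shock protein genes in the 8 libraries, grouped as tamoxifen 72 h, ethanol 72 h, tamoxifen 48 h and ethanol 48 h. Points are libraries and lines are means of 2, and the means of Hsph1, Hspd1 and Hspe1 differ more between 72 h and 48 h than between tamoxifen and ethanol.

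The comparison of tamoxifen with ethanol at 72 h asked which messenger RNAs differed at the later time of treatment. The heat shock genes did not move as a block: Hspa1a, Hspa1b, Hsph1 and Hsp90ab1 rose, Hspd1 fell, and 5 did not pass the test. Thus 5 of 10 members were called, against 38.5% of all 11867 genes tested, and in single directions 4 rose (20.1% of all genes) and 1 fell (18.5% of all genes). The members' median log2 change was 0.0030 and that of all genes -0.0050. Both tamoxifen libraries were above both ethanol libraries in 5 members (35.2% of all genes) and below them in 4 (34.5% of all genes), so that 9 of 10 did not overlap, against 69.7% of all genes. The test was limma on log2(FPKM + 1) over all 8 libraries, with Benjamini-Hochberg adjustment over all genes and calls at an adjusted p of 0.05. This scale understates the change of low genes. The count rested on single libraries: it was 2 without tamoxifen 72 h replicate 1 (Hspa1b, with Dnajb1 newly past the threshold), 2 without ethanol 72 h replicate 1 (Hsp90ab1 and Hspd1) and 3 without ethanol 72 h replicate 2 (Hspa1a, Hspa1b and Hsph1). After median-ratio scaling 3 members rose and 3 fell, and among all called genes 43.8% were rises, against 52.1% as deposited.

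Fibroblast markers moved with this comparison. All 20 listed markers were tested and all 20 rose at 72 h, with a median log2 change of 1.07, all 20 rose at 48 h (median 0.54), and none was at 0 in any group. Their summed level was 1296 to 1387 FPKM in tamoxifen and 622 to 654 FPKM in ethanol at 72 h, and 952 to 977 FPKM in tamoxifen and 650.0 to 675 FPKM in ethanol at 48 h. Of 15 embryonic stem cell markers 14 were tested. Sox2 was listed at 0 with status OK in every library, so it was not marked as a failed estimate. Whether its true level was 0 was not tested. At 72 h 9 of the 14 fell and 0 rose (median log2 change -0.36), with a summed level of 3566 to 4019 FPKM in tamoxifen and 4503 to 4669 FPKM in ethanol. The largest term of that sum was Dppa5a, at 1734 and 2142 FPKM in tamoxifen, against 2571 and 2461 FPKM in ethanol. Pou5f1, which was not called, had 517 and 530 FPKM in tamoxifen, against 506 and 472 FPKM in ethanol. At 48 h the sum of the stem cell markers was 3332 to 3421 FPKM in tamoxifen and 3477 to 3567 FPKM in ethanol. Of 7 primitive endoderm markers, none at 0 in a whole group, 4 were tested and 3 rose at 72 h, among them Pdgfra, which is also in the fibroblast list. The summed level of the 7 was 11.6 to 12.6 FPKM in tamoxifen and 6.00 to 6.84 FPKM in ethanol at 72 h, and 6.25 to 6.49 FPKM in tamoxifen and 4.35 to 4.98 FPKM in ethanol at 48 h. Of 15 p53 targets 14 rose at 72 h and 14 at 48 h. Of all genes 20.1% rose and 18.5% fell at 72 h, and 7.88% rose and 4.47% fell at 48 h. These marker lists were chosen with earlier results of these data known. The part of the marker differences in the values of the heat shock genes was not tested.

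Hspa1a and Hspa1b, the stress-inducible HSP70 genes on chromosome 17 (35106304 to 35109101 and 35093374 to 35096183 of mm9), had the largest log2 changes among the members that rose, at low levels. Hspa1a had 1.54 and 1.40 FPKM in the tamoxifen libraries at 72 h, against 0.722 and 0.966 FPKM in the ethanol libraries. The 48 h libraries had 1.15 and 1.46 FPKM in tamoxifen, against 1.30 and 1.21 FPKM in ethanol. The groups were apart at 72 h and overlapped at 48 h.

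For Hspa1a the log2 change at 72 h was 0.42 ± 0.12 (SE, adjusted p = 0.0176) and the ratio of means 1.74. At 48 h the change was 0.030 ± 0.12 (SE, adjusted p = 0.900). Hspa1b had 2.70 and 2.71 FPKM in tamoxifen at 72 h, against 1.49 and 2.04 FPKM in ethanol, and at 48 h 4.40 and 4.46 FPKM in tamoxifen, against 4.14 and 3.68 FPKM in ethanol. Both tamoxifen libraries were above both ethanol libraries at each time. The log2 change of Hspa1b was 0.43 ± 0.11 (SE, adjusted p = 0.0119) at 72 h, a ratio of means of 1.53, and 0.15 ± 0.11 (SE, adjusted p = 0.422) at 48 h. The Hspa1a call was lost without tamoxifen 72 h replicate 1 (adjusted p = 0.0875) or ethanol 72 h replicate 1 (adjusted p = 0.115), and after quantile normalization (adjusted p = 0.0658). The Hspa1b call was lost without ethanol 72 h replicate 1 (adjusted p = 0.0940). With the copies summed before the fit, an alternative chosen after seeing the data, the change at 72 h was 0.53 ± 0.11 (SE, adjusted p = 0.00428).

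Hspa8, the constitutive HSP70 on chromosome 9 (40609356 to 40613282), was the most abundant member. It stood at 1942 and 1932 FPKM in tamoxifen at 72 h, against 2007 and 2021 FPKM in ethanol. Its values at 48 h were 2426 and 2457 FPKM in tamoxifen, against 2358 and 2429 FPKM in ethanol. The log2 change was -0.056 ± 0.057 (SE, adjusted p = 0.467) at 72 h and 0.029 ± 0.057 (SE, adjusted p = 0.787) at 48 h, and neither passed. The groups were apart at 72 h, with tamoxifen lower, and overlapped at 48 h.

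Hsph1, the exchange factor HSP110 on chromosome 5 (150419420 to 150438890), had 59.3 and 58.8 FPKM in tamoxifen at 72 h, against 51.3 and 53.2 FPKM in ethanol. At 48 h it had 99.0 and 102.5 FPKM in tamoxifen, against 92.9 and 94.0 FPKM in ethanol. Tamoxifen libraries were higher at both times, by a log2 change of 0.17 ± 0.051 (SE, adjusted p = 0.0210) at 72 h and 0.11 ± 0.051 (SE, adjusted p = 0.200) at 48 h. The 72 h call was lost without tamoxifen 72 h replicate 1 (adjusted p = 0.0626) or ethanol 72 h replicate 1 (adjusted p = 0.113), after median-ratio scaling (adjusted p = 0.0653), without the trend (adjusted p = 0.0572) and when only the 72 h libraries were fitted (adjusted p = 0.0643).

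Dnajb1, the J-domain protein HSP40 on chromosome 8 (86132074 to 86135802), did not pass the test at either time. It had 28.1 and 24.7 FPKM in tamoxifen at 72 h, against 31.3 and 28.9 FPKM in ethanol. The libraries of 48 h held 29.5 and 28.6 FPKM in tamoxifen, against 26.9 and 25.4 FPKM in ethanol. Both tamoxifen libraries were below both ethanol libraries at 72 h and above them at 48 h. Neither change passed, with log2 changes of -0.19 ± 0.073 (SE, adjusted p = 0.0670) at 72 h and 0.15 ± 0.073 (SE, adjusted p = 0.224) at 48 h. The difference of the changes was -0.33 ± 0.10 (SE, unadjusted p = 0.00888, limma adjusted p = 0.106) and did not pass either. The 72 h change of Dnajb1 was past the threshold after median-ratio scaling (adjusted p = 0.0315), with a replicate block (adjusted p = 0.0399) and without tamoxifen 72 h replicate 1 (adjusted p = 0.0235).

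Of the cytosolic HSP90 genes Hsp90ab1 rose at 72 h and Hsp90aa1 did not pass. Hsp90ab1, the constitutive form on chromosome 17 (45704727 to 45710210), had 1969 and 1874 FPKM in tamoxifen at 72 h, against 1694 and 1621 FPKM in ethanol. Its 48 h values were 1905 and 1929 FPKM in tamoxifen, against 1818 and 1835 FPKM in ethanol. Tamoxifen libraries were above ethanol libraries at both times.

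The log2 change of Hsp90ab1 was 0.21 ± 0.059 (SE, adjusted p = 0.0168) at 72 h and 0.069 ± 0.059 (SE, adjusted p = 0.485) at 48 h. The inducible form Hsp90aa1, on chromosome 12 (111929246 to 111934605), had 1550.2 and 1639 FPKM in tamoxifen at 72 h, against 1725 and 1815 FPKM in ethanol. At 48 h it had 2204 and 1988 FPKM in tamoxifen, against 2081 and 2184 FPKM in ethanol. Its groups were apart at 72 h, with tamoxifen lower, and overlapped at 48 h. The log2 change was -0.15 ± 0.070 (SE, adjusted p = 0.115) at 72 h and -0.027 ± 0.070 (SE, adjusted p = 0.844) at 48 h. Scaling moved both calls: Hsp90aa1 was past the threshold after median-ratio scaling (adjusted p = 0.0433) and quantile normalization (adjusted p = 0.0420), and Hsp90ab1 was not after quantile normalization (adjusted p = 0.0797). Hsp90ab1 also lost its call without tamoxifen 72 h replicate 1 (adjusted p = 0.0711) or ethanol 72 h replicate 2 (adjusted p = 0.102), with genes of low values kept in the test (adjusted p = 0.0679) and when only the 72 h libraries were fitted (adjusted p = 0.0690).

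A ratio taken within a library does not change when the library is scaled by a single factor, as in median-ratio scaling, though quantile normalization can change it. Hsp90aa1 over Hsp90ab1 was 0.787 and 0.874 in the tamoxifen libraries at 72 h, against 1.02 and 1.12 in the ethanol libraries. At 48 h it was 1.16 and 1.03 in tamoxifen, against 1.14 and 1.19 in ethanol. The 2 libraries of tamoxifen at 72 h were thus below 1 and the other 6 above it, and the groups overlapped at 48 h. The mean ratio was lower by 0.238 in tamoxifen at 72 h. An exact two-sided permutation test of 2 libraries against 2 gave p = 0.333, the smallest it can give, so no ratio here could pass a threshold.

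**Figure D2:**
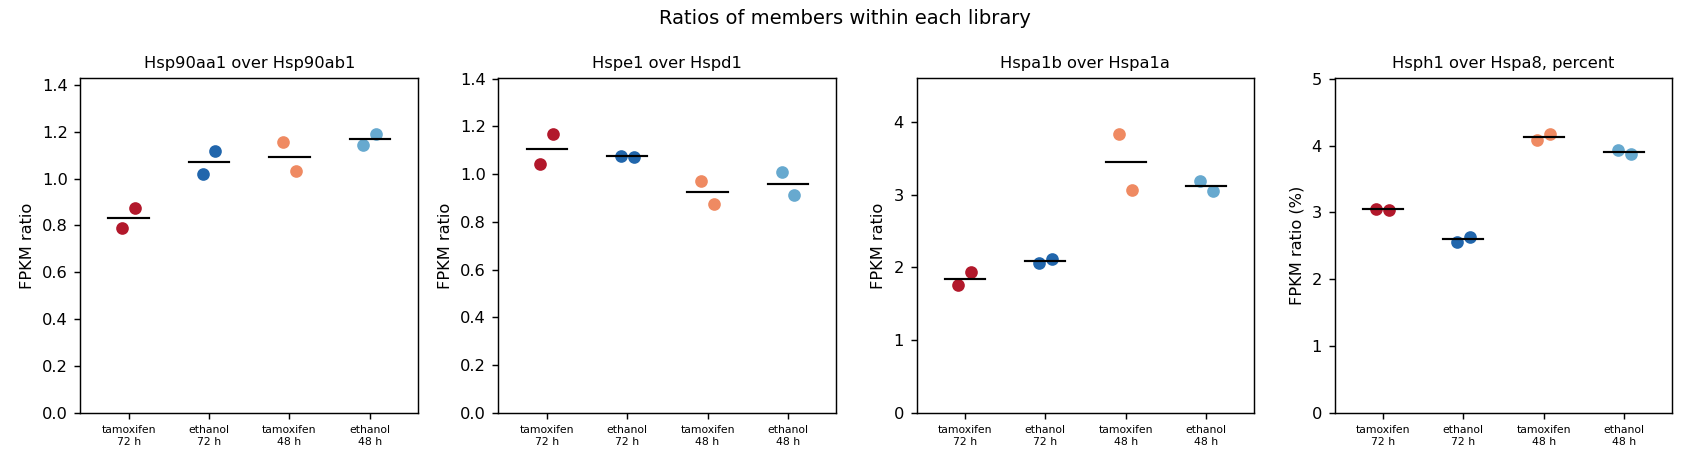
Ratios of FPKM between members within each library (vertical axes from 0), for tamoxifen 72 h, ethanol 72 h, tamoxifen 48 h and ethanol 48 h, with points for libraries and lines for means of 2. Hsp90aa1 over Hsp90ab1 is 0.787 and 0.874 in tamoxifen at 72 h and above 1 in the other 6 libraries, and Hspa1b over Hspa1a is lower in all 4 libraries of 72 h than in those of 48 h.

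Hspd1 and Hspe1, which encode the mitochondrial chaperonin and its lid, lie head to head on chromosome 1 (55134678 to 55144776 and 55144992 to 55148161). Hspd1 had 363 and 380.1 FPKM in tamoxifen at 72 h, against 404 and 430.2 FPKM in ethanol. The 48 h libraries had 654 and 643 FPKM in tamoxifen, against 663 and 673 FPKM in ethanol. Both tamoxifen libraries were below both ethanol libraries at each time, by a log2 change of -0.17 ± 0.055 (SE, adjusted p = 0.0356) at 72 h and -0.042 ± 0.055 (SE, adjusted p = 0.666) at 48 h.

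Hspe1 had 379 and 444 FPKM in tamoxifen at 72 h, against 435 and 462 FPKM in ethanol. Its values at 48 h were 635 and 564 FPKM in tamoxifen, against 668 and 613 FPKM in ethanol. These groups overlapped at both times, and the log2 changes were -0.13 ± 0.086 (SE, adjusted p = 0.266) at 72 h and -0.097 ± 0.086 (SE, adjusted p = 0.503) at 48 h. Hspe1 over Hspd1 was 1.04 and 1.17 in tamoxifen at 72 h, against 1.08 and 1.07 in ethanol. At 48 h this ratio was 0.971 and 0.876 in tamoxifen, against 1.01 and 0.912 in ethanol. Within a time the groups overlapped in this ratio. The Hspd1 call had the largest adjusted p of the 5 and was lost without any 1 of 6 libraries, namely tamoxifen 72 h replicate 1 (adjusted p = 0.135), ethanol 72 h replicate 2 (adjusted p = 0.206) and the 4 of 48 h (adjusted p = 0.0526, 0.0533, 0.0622 and 0.0625). It was also lost with genes of low values kept in the test (adjusted p = 0.0615), without the trend (adjusted p = 0.0783) and when only the 72 h libraries were fitted (adjusted p = 0.0986).

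Hspb1, the small heat shock protein HSP27 on chromosome 5 (136363789 to 136365433), had 299 and 297 FPKM in tamoxifen at 72 h, against 293 and 278 FPKM in ethanol. At 48 h it had 256 and 276 FPKM in tamoxifen, against 229 and 241 FPKM in ethanol. Tamoxifen libraries were higher at both times, but neither change passed. The log2 change was 0.062 ± 0.058 (SE, adjusted p = 0.420) at 72 h and 0.18 ± 0.058 (SE, unadjusted p = 0.0109, adjusted p = 0.0716) at 48 h.

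**Figure D3:**
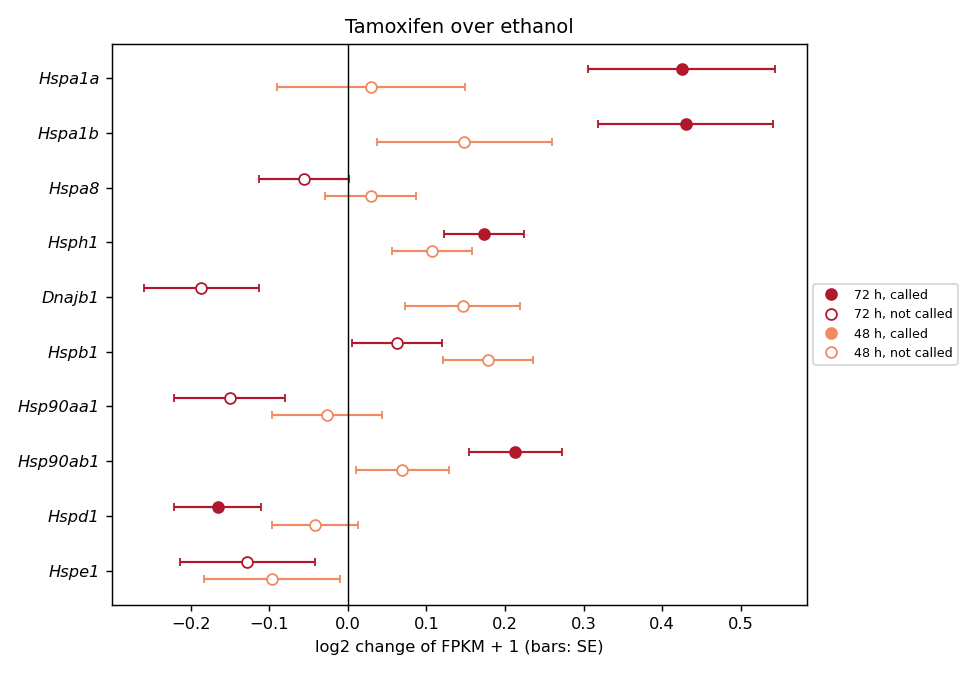
Log2 change of FPKM + 1, tamoxifen over ethanol (horizontal axis), for each member at 72 h and 48 h, with bars of 1 SE and filled points for changes called at an adjusted p of 0.05. At 72 h Hspa1a, Hspa1b, Hsph1 and Hsp90ab1 lie to the right of 0 and Hspd1 to the left among the called genes, and at 48 h no member is called.

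The comparison of tamoxifen with ethanol at 48 h asked the same question at the earlier time. No heat shock gene was called: limma gave 0 of 10 members, against 12.4% of all 11867 genes tested, and 1 member (Hspb1) had an unadjusted p under 0.05. The authors' deposited table called 1, Hspe1. Changes ran from -0.097 for Hspe1 to 0.18 for Hspb1 on the log2 scale, and the members' median was 0.049 beside 0.018 for all genes. In 5 members both tamoxifen libraries were above both ethanol libraries (32.7% of all genes), and in 1 both were below (26.1% of all genes). That is 6 of 10 members without overlap, against 58.8% of all genes. Among all called genes 63.8% were rises as deposited and 47.8% after median-ratio scaling. The difference between the changes at 72 h and 48 h was called in 0 of 10 members by limma, against 3.45% of all genes, and 2 members had an unadjusted p under 0.05 (Dnajb1 and Hspa1a).

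The comparison of 72 h with 48 h asked how the members stood as treatment went on, within tamoxifen and within ethanol. Relative to 48 h, 6 heat shock genes fell in each treatment, with the largest falls in Hsph1, Hspd1, Hspe1 and Hspa1b. In ethanol 6 of 10 members fell and 2 rose, a total of 8 against 57.2% of all genes called, and by direction 19.2% of all genes fell and 38.0% rose. In tamoxifen 6 fell and 1 rose, a total of 7 against 57.1% of all genes called, and by direction 19.6% of all genes fell and 37.5% rose. The median change of the members was -0.36 in tamoxifen and -0.28 in ethanol on the log2 scale, while the median over all genes was 0.11 in each. After median-ratio scaling the median of all genes was -0.0058 in tamoxifen and -0.013 in ethanol. With that scaling 0 members rose and 7 fell in tamoxifen, and 0 rose and 8 fell in ethanol. Of all calls in tamoxifen 65.6% were rises as deposited and 47.2% after scaling, and in ethanol 66.4% and 48.3%. The 2 time comparisons share no libraries with each other, but each shares its libraries with the tamoxifen comparisons above. Time in treatment cannot be told apart from anything else that differed between the cultures or sequencing of the 2 times.

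Marker genes were also compared over time. Of all genes 37.5% rose and 19.6% fell in tamoxifen, and 38.0% rose and 19.2% fell in ethanol. Of the 20 fibroblast markers 17 rose and 0 fell at 72 h against 48 h in tamoxifen (median log2 change 0.44), and 1 rose and 5 fell in ethanol (median 0.020). Of the 14 tested embryonic stem cell markers 5 rose and 7 fell in tamoxifen, and 6 rose and 4 fell in ethanol. Of the 15 p53 targets 14 rose and 0 fell in tamoxifen, and 11 rose and 1 fell in ethanol. Of the 4 tested primitive endoderm markers 3 rose in tamoxifen and 1 in ethanol, and 0 fell in either. Their part in the members' changes over time was not tested.

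Hsph1 was lower at 72 h by a log2 change of -0.76 ± 0.051 (SE, adjusted p = 3.45e-06) in tamoxifen and -0.83 ± 0.051 (SE, adjusted p = 1.44e-06) in ethanol. Its mean was 59.0 FPKM at 72 h and 100.7 FPKM at 48 h in tamoxifen, and 52.2 FPKM at 72 h and 93.5 FPKM at 48 h in ethanol. Relative to Hspa8 in the same library Hsph1 made up 3.05% and 3.04% in tamoxifen and 2.56% and 2.63% in ethanol at 72 h, against 4.08% and 4.17% in tamoxifen and 3.94% and 3.87% in ethanol at 48 h. Hspd1 fell by 0.80 in tamoxifen (SE 0.055, adjusted p = 3.62e-06) and by 0.68 in ethanol (SE 0.055, adjusted p = 7.02e-06), all on the log2 scale. Hspe1 fell by 0.54 in tamoxifen (SE 0.086, adjusted p = 0.000438) and by 0.51 in ethanol (SE 0.086, adjusted p = 0.000598). The lid and the chaperonin thus both fell.

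The HSP70 copies received different calls. The exact permutation test of their ratio over time gave p = 0.333 in each treatment, the smallest it can give, so it could not decide whether they differed. Hspa1b fell by 0.55 in tamoxifen (SE 0.11, adjusted p = 0.00190) and by 0.83 in ethanol (SE 0.11, adjusted p = 0.000138) on the log2 scale. Hspa1a was not called, at 0.10 ± 0.12 (SE, adjusted p = 0.474) in tamoxifen and -0.29 ± 0.12 (SE, adjusted p = 0.0585) in ethanol, where it was past the threshold after median-ratio scaling (-0.37, adjusted p = 0.0237) and quantile normalization (-0.49, adjusted p = 0.00641). The Hspa1b over Hspa1a ratio was 1.75 and 1.94 in tamoxifen and 2.06 and 2.11 in ethanol at 72 h, against 3.83 and 3.06 in tamoxifen and 3.19 and 3.05 in ethanol at 48 h. All 4 libraries of 72 h were below all 4 of 48 h in this ratio, which rests on few fragments and on reads that the copies may share. Hspa8 fell by 0.33 in tamoxifen (adjusted p = 0.000729) and by 0.25 in ethanol (adjusted p = 0.00396).

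Hsp90aa1 fell by 0.39 in tamoxifen (SE 0.070, adjusted p = 0.000928) and by 0.27 in ethanol (SE 0.070, adjusted p = 0.00782). The ethanol call of Hsp90aa1 was lost without ethanol 48 h replicate 2 (adjusted p = 0.0709) or ethanol 72 h replicate 1 (adjusted p = 0.0551). Hsp90ab1 did not pass, at 0.0033 ± 0.059 (SE, adjusted p = 0.965) in tamoxifen and -0.14 ± 0.059 (SE, adjusted p = 0.0650) in ethanol, and in ethanol it was past the threshold after median-ratio scaling (-0.28, adjusted p = 0.00209). The members that rose were few. Hspb1 rose by 0.16 ± 0.058 in tamoxifen (SE, adjusted p = 0.0329) and by 0.28 ± 0.058 in ethanol (SE, adjusted p = 0.00206), and after median-ratio scaling neither passed (0.022 in tamoxifen and 0.14 in ethanol, adjusted p = 0.772 and 0.0764). In tamoxifen the Hspb1 call was also lost without tamoxifen 48 h replicate 1 (adjusted p = 0.231), tamoxifen 72 h replicate 1 (adjusted p = 0.0794) or tamoxifen 72 h replicate 2 (adjusted p = 0.0688), with genes of low values kept in the test (adjusted p = 0.0513), without the trend (adjusted p = 0.0765) and when only the tamoxifen libraries were fitted (adjusted p = 0.0671). Dnajb1 rose in ethanol (0.20 ± 0.073, SE, adjusted p = 0.0407) and stood at -0.14 ± 0.073 in tamoxifen (SE, adjusted p = 0.133). In tamoxifen Dnajb1 was past the threshold, as a fall, after median-ratio scaling (-0.27, adjusted p = 0.00891). Without tamoxifen 72 h replicate 1 that change was -0.23. The Dnajb1 call in ethanol did not hold after median-ratio scaling (adjusted p = 0.522) or quantile normalization (adjusted p = 0.134), with genes of low values kept in the test (adjusted p = 0.0638) or without the trend (adjusted p = 0.0702). It was also lost when tamoxifen 48 h replicate 1 (adjusted p = 0.0507) or replicate 2 (adjusted p = 0.0508), ethanol 48 h replicate 1 (adjusted p = 0.0672) or replicate 2 (adjusted p = 0.202), or ethanol 72 h replicate 1 (adjusted p = 0.219) was left out.

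**Figure D4:**
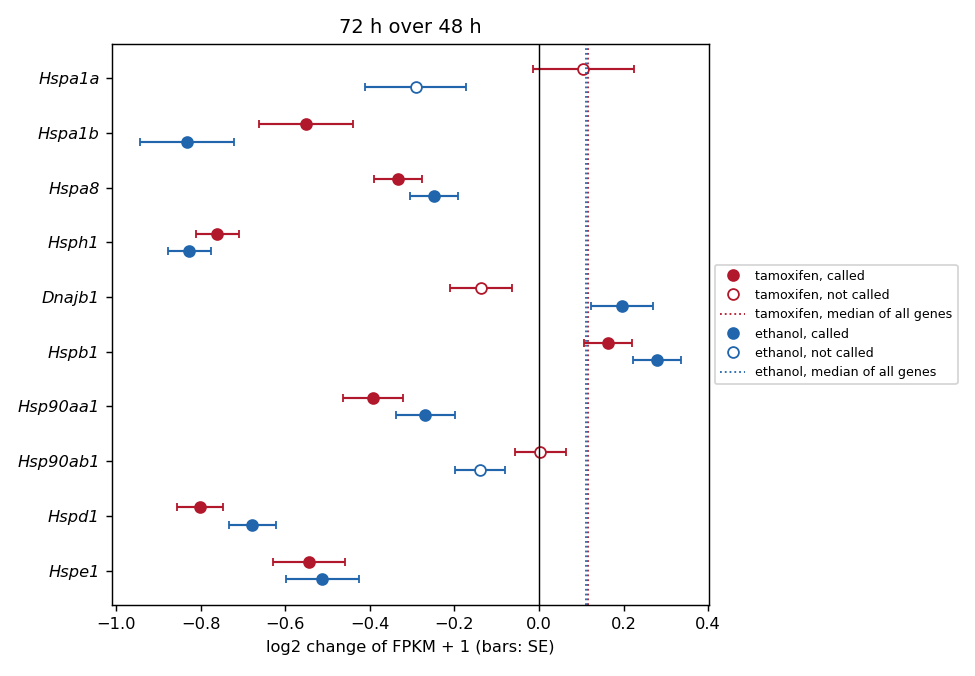
Log2 change of FPKM + 1, 72 h over 48 h (horizontal axis), for each member in tamoxifen and in ethanol, with bars of 1 SE, filled points for changes called at an adjusted p of 0.05 and dotted lines at the median of all genes, 0.11 in each. Hsph1, Hspd1, Hspe1 and Hspa1b lie farthest to the left in both treatments, and Hspb1 lies to the right of 0.

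The authors' deposited table of scaled counts gives a second measure of the tamoxifen comparison, from the same libraries. At 72 h it called 5 of the 10 members at an adjusted p of 0.05, against 32.0% of its 17011 genes. In the authors' deposited table Hspa1a had a mean scaled count of 65.4 in tamoxifen and 36.4 in ethanol (log2 change 0.85, adjusted p = 0.00695), and Hspa1b had 109.7 in tamoxifen and 70.3 in ethanol (0.64, adjusted p = 0.00883). The same authors' deposited table gave falls of Hspd1 (-0.29, adjusted p = 0.000176), Hspe1 (-0.22, adjusted p = 0.00226) and Hsp90aa1 (-0.32, adjusted p = 0.0110). For Hsph1 (0.10, adjusted p = 0.314) and Hsp90ab1 (0.11, adjusted p = 0.472), called by limma on FPKM, the authors' deposited table made no call. At 48 h the authors' deposited table called 1 of 10 members, Hspe1 (-0.18, adjusted p = 0.0166), against 11.9% of its 16729 genes. All these signs are tamoxifen over ethanol, turned from the deposited direction.

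Other chaperone genes of the same pathways were followed in 8 lists with 103 distinct genes, of which 94 were tested. At 72 h 28 of the 94 fell and 15 rose, beside 18.5% and 20.1% of all genes, with a median log2 change of -0.078. The chaperonin CCT, which folds actin and tubulin, and prefoldin had 7 of 13 tested genes lower and 0 higher (median -0.19). Cct5 stood at 305 and 309 FPKM in tamoxifen, against 385 and 414 FPKM in ethanol (-0.38 ± 0.06, SE, adjusted p = 0.000704), and Cct6a fell by 0.31 (adjusted p = 0.00169). Cochaperones of HSP90 had 5 of 18 lower and 2 higher (median -0.080). Chordc1, a cochaperone induced by HSF1, stood at 21.6 and 23.0 FPKM in tamoxifen at 72 h, against 36.5 and 41.3 FPKM in ethanol (-0.77 ± 0.072, SE, adjusted p = 3.04e-05). Sugt1, which links HSP90 to client complexes, fell by 0.38 (adjusted p = 0.00292), and the phosphatase Ppp5c rose by 0.48 (adjusted p = 9.95e-05).

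Beside each list that follows, 18.5% of all genes fell and 20.1% rose at 72 h. J-domain proteins went both ways at 72 h, with 6 of 15 lower and 3 higher (median -0.094). Dnajc8, a J-domain protein found with the spliceosome in human cells, fell by 0.59 (adjusted p = 5.49e-05), and Dnajb5 rose by 0.65 (adjusted p = 0.000268). The count of 9 was 5 without tamoxifen 72 h replicate 1 and 5 without ethanol 72 h replicate 2. Of 14 other HSP70 family genes and exchange factors 1 rose, Bag6 (0.28, adjusted p = 0.00545), and 0 fell (median -0.014). Among all genes 38.5% were called either way. Of 16 mitochondrial chaperones and proteases 6 fell and 2 rose (median -0.10), with the presequence protease Pitrm1 at -0.45 (adjusted p = 0.000519) and the protease subunit Clpp at 0.27 (adjusted p = 0.00322). Without ethanol 72 h replicate 1 that count of 8 was 3. Of 5 tested genes of the small heat shock protein list 2 rose and 0 fell (median 0.19). Cryab, alpha-B crystallin, stood at 12.7 and 17.2 FPKM in tamoxifen, against 6.19 and 6.32 FPKM in ethanol (1.12 ± 0.12, SE, adjusted p = 7.41e-05), in the libraries in which the fibroblast markers were higher, and the part of those cells in it was not tested. Hspb11 (0.36, adjusted p = 0.0262) lost its call without any 1 of tamoxifen 72 h replicate 2 (adjusted p = 0.180), ethanol 72 h replicate 1 (adjusted p = 0.101) or ethanol 72 h replicate 2 (adjusted p = 0.0795), which left a count of 1.

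Of 5 tested genes of the heat shock factor list 2 fell and 1 rose at 72 h (median -0.19), beside 18.5% and 20.1% of all genes. Hsf2, a second heat shock transcription factor, stood at 21.7 and 21.2 FPKM in tamoxifen, against 26.0 and 25.5 FPKM in ethanol (-0.25 ± 0.06, SE, adjusted p = 0.00889). Hsf2bp, which binds HSF2, fell by 0.32 (adjusted p = 0.0126), a call lost without tamoxifen 72 h replicate 1 (adjusted p = 0.0888) or ethanol 72 h replicate 1 (adjusted p = 0.106). Hsbp1, which binds HSF1, rose by 0.27 (adjusted p = 0.0468), a call that did not hold after median-ratio scaling (adjusted p = 0.0697), with a replicate block (adjusted p = 0.0650), with genes of low values kept in the test (adjusted p = 0.0997), without the trend (adjusted p = 0.0857) or when only the 72 h libraries were fitted (adjusted p = 0.0513). It was also lost when ethanol 48 h replicate 1 (adjusted p = 0.0649) or replicate 2 (adjusted p = 0.0649), tamoxifen 72 h replicate 2 (adjusted p = 0.307), or ethanol 72 h replicate 1 (adjusted p = 0.180) or replicate 2 (adjusted p = 0.0928) was left out. The count of 3 in this list was 1 without ethanol 72 h replicate 1. Of 18 further genes listed as responsive to HSF1, several of which are also in the other lists, 5 rose and 6 fell (median -0.078). Sqstm1, the autophagy receptor p62, stood at 211 and 209 FPKM in tamoxifen at 72 h, against 119 and 119 FPKM in ethanol (0.82 ± 0.05, SE, adjusted p = 4.07e-06). At 48 h 8 of the 94 genes rose and 7 fell, beside 7.88% and 4.47% of all genes, led by Sqstm1 (0.44, adjusted p = 0.00119) and Chordc1 (-0.43, adjusted p = 0.00482). That count of 15 was 7 without tamoxifen 48 h replicate 1 or replicate 2, 4 without ethanol 48 h replicate 1 and 2 without ethanol 48 h replicate 2, and Chordc1 lost its call without the last of these (adjusted p = 0.0584).

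**Figure D5:**
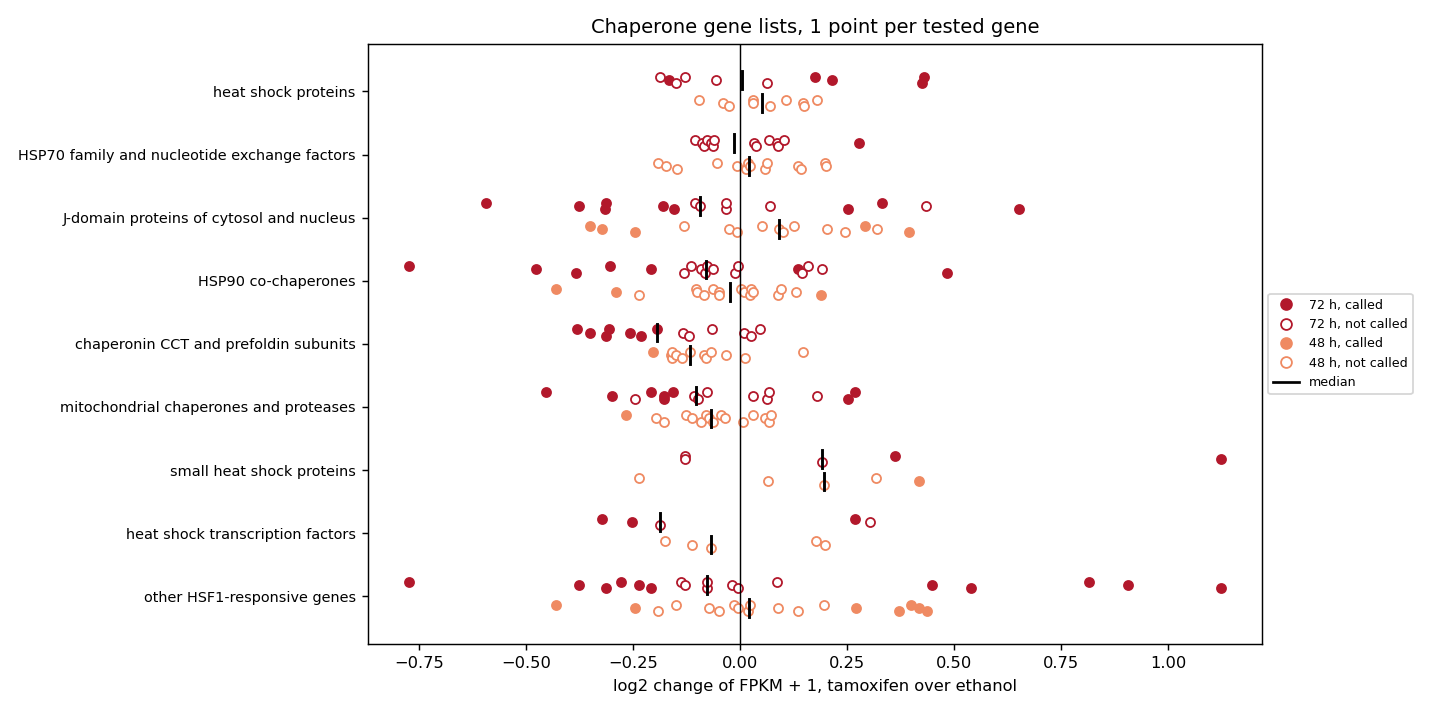
Log2 change of FPKM + 1, tamoxifen over ethanol (horizontal axis), for every tested gene of the 10 members and of the 8 chaperone lists at 72 h and 48 h, with filled points for called genes and black ticks for medians. At 72 h the chaperonin and prefoldin list has 7 called genes to the left of 0 and 0 to the right, and Cryab lies farthest to the right at 1.12.

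For the 4 members whose group means spanned over 0.5 on the log2 scale, the genes of most similar pattern were sought among all tested genes by the distance between centred log2 means over the 4 groups. Hspa1b was nearest to Klhdc4 (distance 0.054), Rbm3 (0.071) and Zfand2a (0.11). Rbm3 averaged 198 FPKM in tamoxifen and 140 FPKM in ethanol at 72 h, and 290.3 FPKM in tamoxifen and 249.9 FPKM in ethanol at 48 h. It thus ran in the same order of groups as Hspa1b, at a far higher level. Hsph1 was nearest to Foxp1 (0.045) and Dusp27 (0.067), Hspd1 to Zfp868 (0.014), Ggct (0.019) and Nufip2 (0.048), and Hspe1 to Slmo2 (0.010), Hmgb1 (0.023) and Trmt6 (0.023). With 4 points per gene and 11867 genes to choose from, such neighbours are a description only.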

How the data were processed

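FPKM values per gene with confidence bounds were made by the authors, 1 table per library, in the Cufflinks layout per the file headers. DESeq, HTSeq, Cufflinks 1.3.0, TopHat 1.4.1 and BWA 0.6.1 are named with build mm9 in the submitters' processing notes, and what each did is not given in the sources used here. Per the file headers, the authors further deposited a signal (group means of counts divided by size factors), log2 fold changes of ethanol over tamoxifen, and p-values with adjusted p-values.

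Grouping followed the labels. Of 20789 entries, 209 without status OK in a library were left out, and 20388 identifiers remained with the entry of highest mean FPKM. Genes with at least 1 FPKM in at least 2 libraries were tested (11867) as log2(FPKM + 1) with limma 3.58.1 in R 4.3.3, with 1 mean per group, 4 residual degrees of freedom, a mean trend and two-sided tests adjusted by Benjamini-Hochberg within each of 5 contrasts. The fit was tested on simulated data. Implied fragments are the square of 2 times the value over its distance from the upper bound. Starts in the files were taken as counting from 0 and 1 was added. Members and lists were chosen with earlier results of these data known. Besides the members and Htatsf1, the rule named the 2 genes of smallest p per chaperone list, and in the fibroblast list, at each time, and the 3 genes nearest in pattern to each member of span over 0.5. One of these genes is not reported here. Alternatives were pseudocounts of 0.1 and 5, other filters, scalings, no trend, fewer libraries and a replicate block.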

Additional observations from a re-analysis of the deposited data

Results flagged for a closer look

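Among the genes named here, 5 had a tamoxifen change at 72 h that differed from that at 48 h in limma's test of the difference. None of them is a heat shock member. For the protease subunit Clpp the difference of log2 changes was 0.38 (adjusted p = 0.0302), with a change of 0.27 at 72 h and -0.11 at 48 h. For the autophagy receptor gene Sqstm1 it was 0.38 (adjusted p = 0.0306), with 0.82 at 72 h and 0.44 at 48 h. The other 3 are fibroblast markers: the difference was 0.41 for Thbs1 (adjusted p = 0.0242), 0.58 for Col1a1 (adjusted p = 0.00727) and 1.00 for Acta2 (adjusted p = 0.00204).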

How the results depend on the processing

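Of the counts of heat shock genes called, that of tamoxifen against ethanol at 72 h moved by over 1.5 times. It was 5, and 3 without the filter on low values, 3 with a minimum of 5 FPKM (where 8 members were tested), 3 without the trend and 2 in the libraries of 72 h alone. When single libraries were left out it ran from 2 to 5. At 48 h, and for the difference of the changes, the count stayed at 0 in every alternative run. In ethanol over time it ran from 6 to 9 and in tamoxifen over time from 6 to 7 when single libraries were left out. The fit over 72 h libraries alone rests on 2 residual degrees of freedom.

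Changes that did not pass turned sign in some alternatives. At 48 h after quantile normalization Hspa1a stood at -0.051, Hspa8 at -0.031 and Hsp90aa1 at 0.028, and after median-ratio scaling Hspa8 stood at -0.014 and Hspa9 at -0.031. When single libraries were left out at 48 h, Hspa1a ran from -0.067 to 0.13, Hsp90aa1 from -0.10 to 0.048 and Hspa9 from -0.011 to 0.036, and the difference for Hspe1 ran from -0.15 to 0.082. In tamoxifen over time Hspa1a stood at -0.13 after quantile normalization, and Hsp90ab1 at -0.14 after median-ratio scaling, at -0.18 after quantile normalization and between -0.032 and 0.039 when single libraries were left out. With the HSP70 copies summed, the tamoxifen change over time was -0.38 (adjusted p = 0.0149), against 0.10 for Hspa1a alone.

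With a replicate block the count at 72 h was 6 and Dnajb1 was called (-0.19, adjusted p = 0.0399). The block changed no other call of a member, but among the chaperone genes chosen by smallest p it ended the 72 h calls of Hsbp1 (adjusted p = 0.0650) and Dnajc7 (0.0578) and the 48 h calls of Ppp5c (0.0583), Cct6a (0.0595) and Cryab (0.0625). Same-numbered libraries deviated together in 1 of 6 pairs of groups by a correlation over 0.1 (0.145), and the lowest correlation was -0.276, so the numbers were not taken as pairs. Over all genes the count at 48 h (1466) was 958 without the filter and 440 to 756 without single 48 h libraries, and that of the difference (409) went as low as 44 without the filter. The cause of these shifts was not tested. The fit over only 2 groups could not give the difference of the changes. Depth limits Hspa1a and Hspa1b, with 25 to 199 implied fragments per library.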
